A study of Mus musculus with 12 samples.

Results

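The renin-angiotensin system was followed through 8 transcripts, taken as every row of the deposited gene table named Ren1, Agt, Ace, Agtr1a, Agtr1b, Agtr2, Mme or Enpep. All 8 were present among the 18803 genes of the table, and 6 of the 8 had enough reads to be tested, as did 15322 genes of the table. The study asks what Wwp2, a ubiquitin ligase, does in the proximal tubule of the injured mouse kidney. Bulk kidney RNA was sequenced in 12 libraries, 3 in each of 4 groups of male mice, 8 weeks old and on a C57BL/6J background. The groups were PTCKO UIR, WT UIR, PTCKO sham and WT sham. PTCKO mice carry a conditional knockout of Wwp2 in the proximal tubule, and WT mice are the WWP2 fl/fl controls, so the controls carry floxed alleles too. UIR is the kidney injury and sham its surgical control, with the abbreviation used as the labels give it. The Cre driver, the floxed exon and the time between surgery and collection are not stated in the labels or protocols. Nothing ties the libraries of a group to separate mice, and p-values therefore reflect only how far these libraries vary, which may be technical.

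Renin, made by juxtaglomerular cells at the glomerular arteriole, cleaves angiotensinogen to angiotensin I, and angiotensin-converting enzyme (ACE) turns that into angiotensin II. Angiotensin II constricts vessels and promotes sodium retention through AT1 receptors, which mice encode in a pair of genes, Agtr1a and Agtr1b, and AT2 receptors are often described as opposing AT1. Neprilysin and aminopeptidase A break angiotensin peptides down on cell surfaces, and in kidney both, like ACE, are abundant on the proximal tubule brush border. AT1 signalling is also known to restrain renin expression, a feedback that blockers of the system release.

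Expected counts per library totalled 15495163 to 19645743, libraries of a group had pairwise r of 0.982 to 0.989, and the fit gave a biological coefficient of variation of 0.121. Levels are FPKM, read fragments scaled to transcript length and to the library total. Fold changes are log2 values from edgeR, which fits counts after TMM scaling, and called means an adjusted p below 0.05 across the 15322 genes. TMM factors ran from 0.749 in sham to 1.29 in UIR libraries. Without them the median log2 fold change of all tested genes, UIR over sham, moved to 0.57 in PTCKO and 0.82 in WT, against 0.06 in PTCKO and 0.10 in WT with them, so FPKM ratios between UIR and sham can differ in direction from the fold changes. PTCKO over WT after sham moved by less, to 0.12 without scaling, against 0.00 with it, and the interaction moved to -0.20, against 0.00. Leaving out scaling shifts all genes of a comparison by nearly the same amount. Values relative to the median gene are therefore alike with and without scaling by construction, and do not test it. Wwp2 reads over the whole gene were not lower in PTCKO, with a log2 fold change over WT of 0.25 after UIR (edgeR adjusted p = 0.0370) and -0.03 after sham (adjusted p = 0.823), so genotype directions rest on the labels. Kap, an abundant proximal tubule transcript of male mouse kidney, ranged from 2759 to 71911 FPKM over the libraries. In 5 of the 12 libraries more than 100 expected counts were assigned to a second renin gene, Ren2, so Ren1 results are given with and without those reads. In whole kidney, fewer cells of a type and less RNA per cell cannot be told apart.

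The members behaved unalike. After UIR, Ace fell by 3.51 in PTCKO and 3.96 in WT on the log2 scale (by 3.00 and 3.25 without scaling) and Enpep fell by 0.99 in PTCKO and 1.02 in WT, while Ren1 and Mme responded differently in PTCKO and WT kidneys. In sham kidneys, PTCKO had lower Ren1 and higher Agt and Mme than WT. Of the 12 fits that left out 1 library, the Agt call was lost in 7 and the Mme call in 4. After UIR, Ace was the 1 tested member that passed the test between PTCKO and WT, and it was higher in PTCKO. That call was lost in 3 of the 12 fits.

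Of the 6 members tested, 5 were called lower after UIR in PTCKO (34.8% of all tested genes were called lower, 39.0% higher and 73.8% in either direction), and without scaling 0 were higher and 3 lower, with Ren1 and Agtr1a losing their calls. In WT, 4 were called lower after UIR (36.4% of tested genes lower, 42.1% higher, 78.6% in either direction), but without scaling 2 were called higher, Agt and Mme, and 2 lower, Ren1 and Ace, while Enpep lost its call and Agtr1a turned to an uncalled positive value. Between PTCKO and WT after UIR 1 of the 6 was called, higher in PTCKO (9.30% of tested genes higher, 4.50% lower, 13.8% in either direction). After sham 3 of the 6 were called, 2 of them higher in PTCKO (5.23% of tested genes) and 1 lower (5.50%), with 10.7% called in either direction. The interaction, which asks whether the UIR effect differed between genotypes, called 2 of the 6, 1 with a higher (14.4% of tested genes) and 1 with a lower value (7.08%), beside 21.5% in either direction. The median log2 fold change of the 6 was -0.81 for UIR over sham in PTCKO and -0.75 in WT, 0.01 for PTCKO over WT after UIR and 0.23 after sham.

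**Figure D1:**
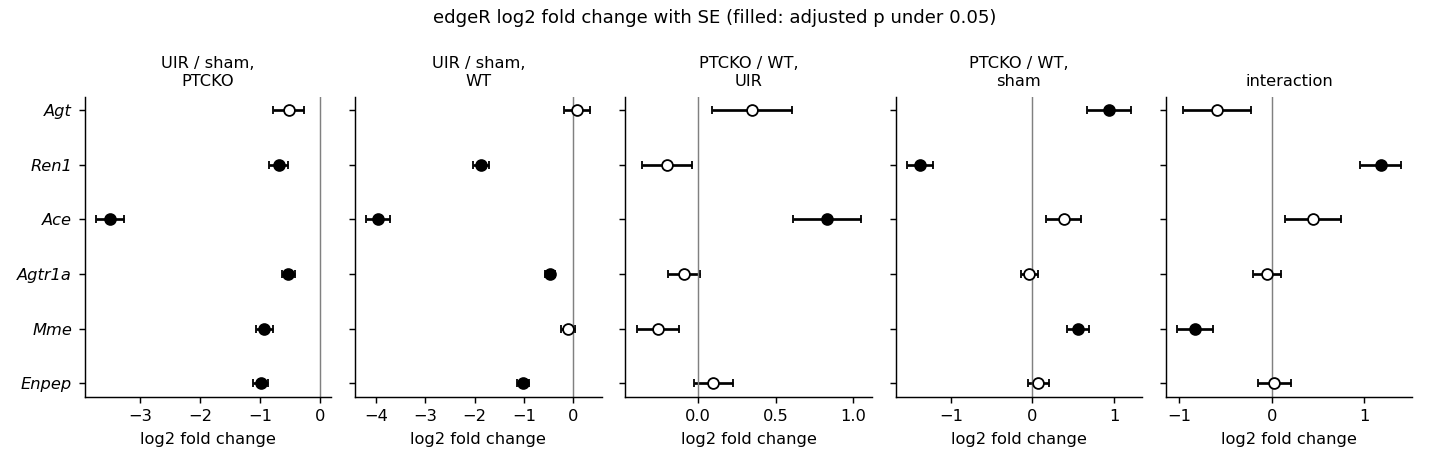
Log2 fold changes of the 6 tested members on the x axes, with 1 panel per comparison, points for edgeR estimates, bars for SE and filled points for an adjusted p under 0.05. Ace fell by 3.51 in PTCKO and 3.96 in WT, and in the interaction panel Ren1 lies at 1.18 and Mme at -0.83; Agtr1a and Mme change direction in WT UIR over WT sham without scaling.

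The promoters of the 3 members that together make angiotensin II, renin, ACE and angiotensinogen, are printed so that the elements nearest their start sites can be read beside the values. Each is the 250 bases before the RefSeq start in GRCm38.p6, in the direction of transcription: Ren1 at chr1:133350424-133350673 on the plus strand, Ace at chr11:105967698-105967947 on the plus strand and Agt at chr8:124569707-124569956 on the minus strand. Capitals mark matches to TATAAA, a common core promoter motif, to GGGCGG, which factors of the Sp family bind, and, in Ren1, to the element bound by HOX and PBX proteins in renin promoters. These were searched on both strands together with CCAAT, known for binding NF-Y, TGACGTCA, the full cyclic AMP response element, CACGTG, known as an E-box, and the glucocorticoid response element.
Ren1: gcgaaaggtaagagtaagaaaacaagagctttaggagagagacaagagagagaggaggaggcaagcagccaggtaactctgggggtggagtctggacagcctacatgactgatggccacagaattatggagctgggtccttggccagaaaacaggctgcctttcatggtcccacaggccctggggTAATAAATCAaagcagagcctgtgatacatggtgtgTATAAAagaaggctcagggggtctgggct
Ace: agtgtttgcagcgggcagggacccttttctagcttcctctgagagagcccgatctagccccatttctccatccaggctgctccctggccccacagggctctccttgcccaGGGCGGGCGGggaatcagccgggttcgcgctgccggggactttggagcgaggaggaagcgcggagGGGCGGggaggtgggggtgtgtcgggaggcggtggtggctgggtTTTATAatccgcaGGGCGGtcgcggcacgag
Agt: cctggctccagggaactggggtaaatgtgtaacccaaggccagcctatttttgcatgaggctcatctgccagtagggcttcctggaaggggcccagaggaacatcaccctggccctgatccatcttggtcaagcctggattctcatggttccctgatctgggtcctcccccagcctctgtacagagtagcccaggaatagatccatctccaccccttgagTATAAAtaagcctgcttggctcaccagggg
In Ren1 the HOX and PBX element, the first run of capitals, began 65 bases before the start and TATAAA began 29 bases before it. That element was present in 0.0548% of 32851 RefSeq promoter windows of the same length, and TATAAA in 12.4%. Ace held 4 matches to GGGCGG, of which a pair overlap in the first run of capitals, and GGGCGG was present in 32.7% of windows. Its match to TATAAA lay on the opposite strand and reads TTTATA in the printed line. Agt held TATAAA 30 bases before its start. In this search CCAAT (33.8% of windows), TGACGTCA (1.55%), CACGTG (6.02%) and the glucocorticoid response element (0.00913%) had no match in these 3 windows. A promoter was matched for 7 of the 8 members, all but Agtr1a. A match is a run of letters and was not tested for binding.

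Ren1 (Entrez 19701, chromosome 1, 133350674 to 133360320, plus strand) encodes renin, the enzyme that sets the pace of the pathway. It had 27.3, 34.3 and 33.6 FPKM in PTCKO UIR, 41.2, 43.6 and 29.9 FPKM in WT UIR, 32.9, 31.2 and 43.5 FPKM in PTCKO sham, and 101, 77.6 and 78.6 FPKM in WT sham. All 3 WT sham libraries lay above every other library, and the other 3 groups overlapped one another. In PTCKO sham kidneys Ren1 averaged 35.9 ± 6.66 FPKM, against 85.6 ± 13.0 FPKM in WT sham kidneys (SD, n = 3 each), a log2 fold change of -1.38 (SE 0.159, edgeR adjusted p = 0.000998).

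Ren1 fell after UIR in both genotypes. On TMM-scaled CPM, counts per library total after scaling, it averaged 36.1 ± 4.41 in PTCKO UIR against 58.3 ± 10.5 in PTCKO sham, while WT UIR averaged 41.4 ± 7.28 against 152 ± 22.8 in WT sham (SD, n = 3 each). The log2 fold change of UIR over sham was -0.69 in PTCKO (SE 0.160, edgeR adjusted p = 0.00152) and -1.87 in WT (SE 0.160, adjusted p = 1.27e-07). The difference between those effects, the interaction, was 1.18 (SE 0.223, edgeR adjusted p = 0.00531). After UIR the log2 fold change of PTCKO over WT was -0.20 (SE 0.158, adjusted p = 0.439), with overlapping libraries. The call in PTCKO was lost without scaling (-0.18, adjusted p = 0.337) and on FPKM. Relative to the median gene the fall was 0.75 with and without scaling, values that are alike by construction.

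The renin reads carry a limit that touches each of these values. C57BL/6 mice have 1 renin gene, whereas some other strains carry a near-identical extra copy, Ren2, and RSEM divides reads that match both by an estimate. Ren2 held 0 reads in 6 libraries, 1.52 expected counts in WT sham 1, and 20.4% to 24.9% of all renin reads in the other 5 libraries. Those 5 were PTCKO sham 1, 2 and 3, at 22.6% (95% exact binomial interval 19.9% to 25.4%), 20.4% (17.8% to 23.3%) and 20.7% (18.5% to 23.2%), WT UIR 2 at 22.2% (20.1% to 24.4%) and WT sham 2 at 24.9% (23.2% to 26.7%). Where Ren2 had 0 reads, 3 reads would have been 0.164% to 0.516% of the renin reads, and intervals and limits cover counting error only. Over the 12 libraries the split follows neither genotype nor surgery. Within PTCKO it follows surgery, as all 3 PTCKO sham libraries and no PTCKO UIR library are among those 5. In PTCKO the UIR effect on Ren1 therefore cannot be told apart from the split, which also enters the interaction. The sham groups differ in the split too, with 3 PTCKO libraries and 1 WT library. What the split reflects was not tested.

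Summing Ren1 and Ren2, an alternative chosen after these values were seen, keeps every renin read in 1 gene. It does not separate surgery from the split within PTCKO. The summed reads were 31.1, 37.8 and 39.4 CPM in PTCKO UIR, 44.0, 60.5 and 33.2 CPM in WT UIR, 70.5, 63.1 and 88.5 CPM in PTCKO sham, and 178, 179 and 144 CPM in WT sham. PTCKO sham lay below WT sham without overlap, with a log2 fold change of -1.17 (SE 0.189, edgeR adjusted p = 0.00684). UIR over sham was -1.03 in PTCKO (SE 0.191, adjusted p = 0.000258) and -1.86 in WT (SE 0.191, adjusted p = 8.46e-07), and the interaction was 0.83 (SE 0.266, adjusted p = 0.0431). Among the libraries with Ren2 reads, Ren1 alone had 54.6, 50.2 and 70.1 CPM in PTCKO sham and 134 CPM in WT sham 2, a comparison with 1 WT sham library.

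**Figure D2:**
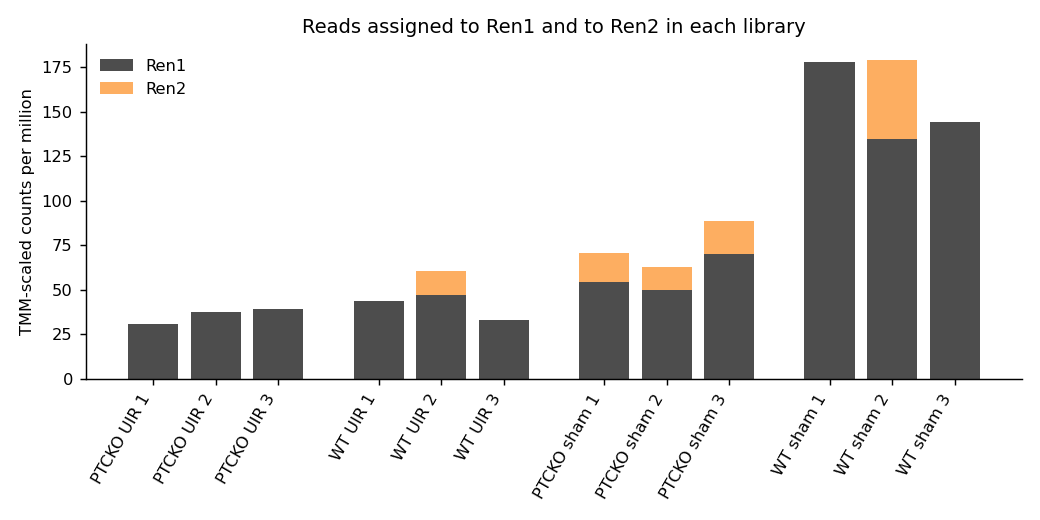
TMM-scaled CPM (y axis) assigned to Ren1 (dark) and Ren2 (orange, stacked) in each of the 12 libraries (x axis, grouped PTCKO UIR, WT UIR, PTCKO sham, WT sham). Ren2 takes 20.4% to 24.9% of the renin reads in 5 libraries and is at 0 or under 2 reads in the others, and the stacked height of the 3 PTCKO sham libraries, 63.1 to 88.5, stays below the 144 to 179 of WT sham.

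After UIR, the listed juxtaglomerular markers and renin regulators moved in both directions. They are not all particular to renin cells, and renin cell content was not tested. Akr1b7, an aldo-keto reductase that marks renin cells in mouse, was higher after UIR in both genotypes, opposite to Ren1. It had 5.90, 6.41 and 7.35 FPKM in PTCKO UIR, 7.36, 6.95 and 7.22 FPKM in WT UIR, 1.48, 1.65 and 2.13 FPKM in PTCKO sham, and 3.08, 3.95 and 1.78 FPKM in WT sham. Its log2 fold change, UIR over sham, was 1.40 in PTCKO (SE 0.237, edgeR adjusted p = 0.000125) and 0.59 in WT (SE 0.220, adjusted p = 0.0263). The WT call was lost without WT sham 3, WT UIR 1 or WT UIR 3 (adjusted p up to 0.112). In sham kidneys Akr1b7, like Ren1, was lower in PTCKO (-0.87, SE 0.251, adjusted p = 0.0457), but that call was lost in 10 of the 12 fits that left out 1 library (adjusted p up to 0.134) and without scaling (-0.74, adjusted p = 0.0727).

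The list of 12 juxtaglomerular markers and renin regulators had 6 members called higher and 3 lower after UIR in PTCKO (39.0% and 34.8% of tested genes). In WT 8 were higher and 2 lower (42.1% and 36.4% of tested genes), with Casr, the calcium-sensing receptor, changing direction in WT without scaling. The median log2 fold change of the list was 0.11 in PTCKO and 0.61 in WT, beside 0.06 and 0.10 for all genes. For 10 endothelial markers it was 0.05 in PTCKO and 0.58 in WT. Between PTCKO and WT after UIR 1 of the 12 was called higher, Vdr, the vitamin D receptor (0.88, SE 0.152, edgeR adjusted p = 0.00272), and 2 lower, Gja5, the connexin-40 gene (-0.74, SE 0.211, adjusted p = 0.0349), and Npr1, a natriuretic peptide receptor (-0.46, SE 0.101, adjusted p = 0.010; 0.0582 without PTCKO UIR 3). Vdr is also abundant in the tubule, and over the libraries it ran from 13.4 FPKM in WT UIR 3 to 89.9 FPKM in PTCKO sham 3. In sham kidneys Akr1b7 was the 1 member of the list that was called. Of all tested genes, 9.30% were called higher and 4.50% lower in PTCKO after UIR, and 10.7% in either direction after sham.

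The macula densa, the tubular sensor that signals to renin cells, was followed through 4 genes. Ptgs2, the cyclooxygenase whose prostaglandins stimulate renin release, rose after UIR in WT (log2 fold change 1.42, SE 0.328, edgeR adjusted p = 0.00135), and its value in PTCKO was 0.26 (SE 0.310, adjusted p = 0.469). Ptges, a prostaglandin E synthase, was lower after UIR in WT (-0.77, SE 0.217, adjusted p = 0.00502), a call lost without scaling (-0.06, adjusted p = 0.788), and its value in PTCKO was 0.02 (SE 0.215, adjusted p = 0.953). The interaction for Ptgs2 was -1.17 (SE 0.455, adjusted p = 0.0825), and the level of Ptgs2 was at most 1.02 FPKM in every library. Nos1, the neuronal nitric oxide synthase of the macula densa, was at most 0.22 FPKM and was called in none of the 5 comparisons by edgeR. Slc12a1, the NKCC2 cotransporter of the macula densa and of the much larger thick ascending limb, had 151, 267 and 139 FPKM in PTCKO sham and 79.0, 79.6 and 85.8 FPKM in WT sham. After UIR it fell by 2.08 on the log2 scale in PTCKO (SE 0.257, adjusted p = 6.84e-06), and its value in WT was -0.33 (SE 0.247, adjusted p = 0.237). The difference between PTCKO and WT sham was called (log2 fold change 1.06, SE 0.249, adjusted p = 0.0243), as was its interaction (-1.75, SE 0.352, adjusted p = 0.00675). The sham call for Slc12a1 was lost without WT sham 1, WT sham 2, WT sham 3 or PTCKO sham 2 (adjusted p up to 0.0766).

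Agt (Entrez 11606, chromosome 8, 124556587 to 124569706, minus strand) encodes angiotensinogen, the substrate of renin, which the liver secretes and the proximal tubule also makes. It had 32.9, 30.2 and 34.1 FPKM in PTCKO UIR, 25.9, 30.3 and 24.0 FPKM in WT UIR, 24.0, 49.7 and 24.1 FPKM in PTCKO sham, and 11.5, 14.1 and 20.7 FPKM in WT sham. The WT sham libraries were the 3 lowest of the 12, and PTCKO sham 2 stood about 2-fold above the other PTCKO sham libraries. In sham kidneys Agt was higher in PTCKO, at 32.6 ± 14.8 FPKM, than in WT, at 15.4 ± 4.74 FPKM (SD, n = 3 each), with a log2 fold change of 0.94 (SE 0.266, edgeR adjusted p = 0.0424).

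The call rested on few libraries. It was lost without PTCKO sham 2 (0.51, edgeR adjusted p = 0.143), WT sham 1 (0.76) or WT sham 2 (0.86), and just missed the threshold without PTCKO UIR 1 (0.95), WT UIR 1 (0.95), WT UIR 3 (0.95) or PTCKO sham 1 (1.11). PTCKO sham 2 was also the highest of its group in Slc12a1, at 267 FPKM, and in Mme, at 26.6 FPKM, and the part of thick ascending limb RNA in the Agt and Mme values was not tested. After UIR, Agt in PTCKO over WT was 0.35 (SE 0.258, edgeR adjusted p = 0.404). UIR over sham was -0.52 in PTCKO (SE 0.258, adjusted p = 0.0863) and 0.08 in WT (SE 0.265, adjusted p = 0.803). Both depended on scaling: in WT Agt was called higher after UIR without scaling (0.79, adjusted p = 0.0126). Relative to the median gene Agt in WT was -0.03 with and -0.02 without scaling, values that are alike by construction. In PTCKO the value became a call without PTCKO sham 1 (-0.69, adjusted p = 0.0403) or PTCKO sham 3 (-0.70, adjusted p = 0.0347).

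Transcripts of liver-secreted proteins were followed beside Agt. The summed FPKM of 7 such genes, which proximal tubule can also express at low level, was 53.4 to 150 in the PTCKO and 21.9 to 44.2 in the WT libraries after UIR, and 240 to 440 in the PTCKO and 218 to 274 in the WT libraries after sham. Alb, the defining liver transcript, averaged 0.303 ± 0.0586 FPKM in PTCKO UIR, 0.203 ± 0.00577 in WT UIR, 5.31 ± 0.796 in PTCKO sham and 6.64 ± 1.2 in WT sham (SD, n = 3 each). In PTCKO sham the highest library, at 440, stood above the median of 261. None of these 7 was called between PTCKO and WT after sham by edgeR (10.7% of tested genes were), and 3 had an unadjusted p under 0.05. Their median log2 fold change of PTCKO over WT after sham was -0.45, although the highest sum was in PTCKO. The sums weigh the most abundant genes.

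Ace (Entrez 11421, chromosome 11, 105967948 to 105989964, plus strand) encodes the converting enzyme that makes angiotensin II. It had 11.2, 12.7 and 19.8 FPKM in PTCKO UIR, 8.99, 10.4 and 6.40 FPKM in WT UIR, 110, 116 and 85.0 FPKM in PTCKO sham, and 76.1, 86.2 and 86.6 FPKM in WT sham. Every UIR library lay far below every sham library, and within UIR the 3 PTCKO libraries lay above the 3 WT libraries. Ace fell after UIR by 3.51 on the log2 scale in PTCKO (SE 0.233, edgeR adjusted p = 1.59e-08) and by 3.96 in WT (SE 0.239, adjusted p = 3.97e-09), the largest change of any tested member in both comparisons. Without scaling the values were -3.00 in PTCKO and -3.25 in WT. On TMM-scaled CPM that was 44.6 ± 14.6 in PTCKO UIR against 508 ± 96.3 in PTCKO sham, and 25.0 ± 5.63 in WT UIR against 391 ± 20.7 in WT sham (SD, n = 3 each).

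After UIR Ace was higher in PTCKO, at 14.6 ± 4.60 FPKM, than in WT, at 8.59 ± 2.02 FPKM (SD, n = 3 each; log2 fold change 0.83, SE 0.219, edgeR adjusted p = 0.0240). The call was lost without WT UIR 1 (0.87, adjusted p = 0.0720), WT UIR 3 (0.69, adjusted p = 0.0894) or PTCKO UIR 3 (0.54, adjusted p = 0.116), and when only those 2 groups were fitted (0.83, adjusted p = 0.0667). After sham the difference was 0.38 (SE 0.210, adjusted p = 0.244), and the interaction was 0.45 (SE 0.302, adjusted p = 0.298), so a difference between the genotype effects was not shown.

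Proximal tubule markers were also lower after UIR. All 12 listed proximal tubule markers fell after UIR in both genotypes (34.8% of tested genes in PTCKO and 36.4% in WT). Their median log2 fold change was -3.20 in PTCKO and -4.64 in WT. After UIR 11 of the 12 were higher in PTCKO than WT (9.30% of tested genes), with a median of 1.37. The interaction was called higher for 10 of the 12 (14.4% of tested genes), with a median of 1.55, whereas that of Ace was not called. Their summed FPKM was 1310 to 2080 in the PTCKO and 410 to 872 in the WT libraries after UIR, and 8225 to 9683 in the PTCKO and 10140 to 10830 in the WT libraries after sham. The part of proximal tubule RNA content in the Ace values was not tested.

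**Figure D3:**
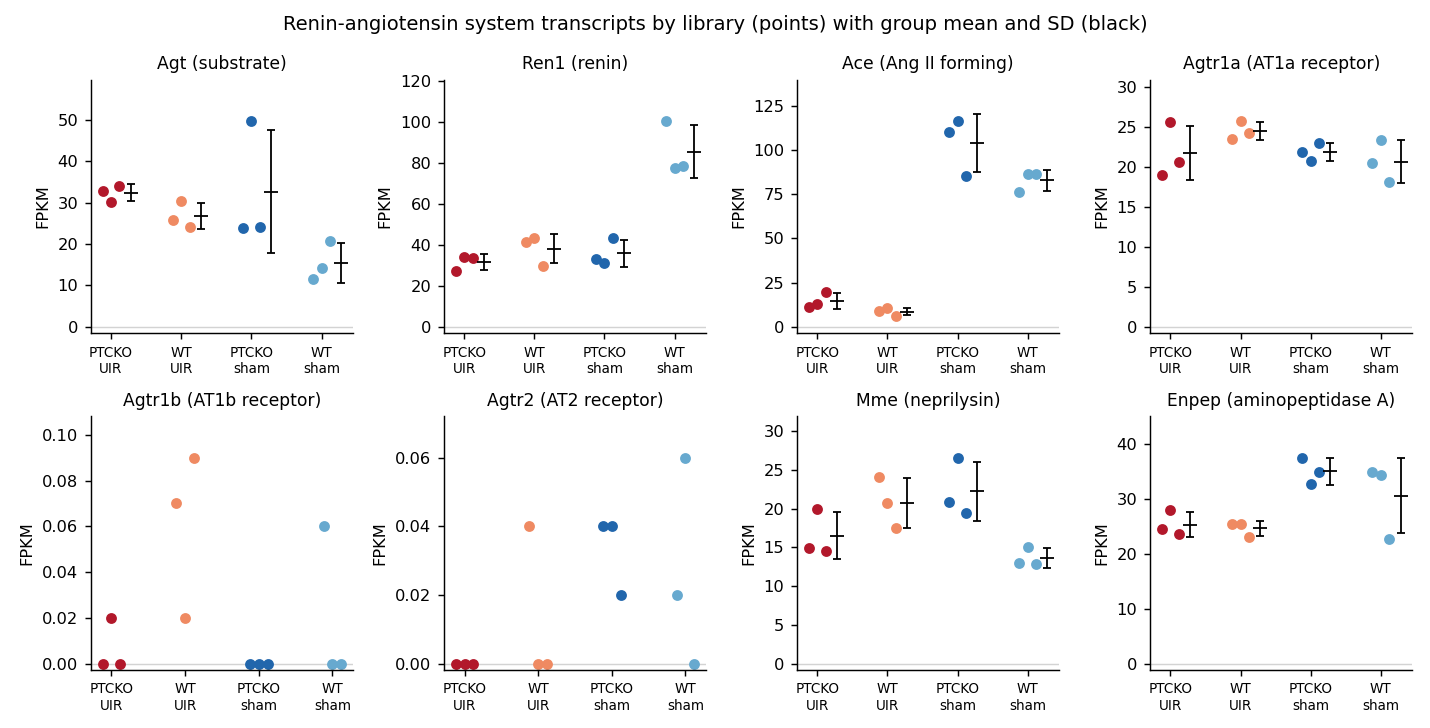
FPKM (y axes, from 0) of the 8 members in each of the 12 libraries (points), with group mean and SD in black for all but Agtr1b and Agtr2, whose levels are near 0. Ren1 stands at 77.6 to 101 in WT sham and at 43.6 or less elsewhere, Ace is 6.40 to 19.8 in UIR and 76.1 to 116 in sham, and 1 PTCKO sham library is high in Agt at 49.7.

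Ratios within a library do not depend on library scaling, and the Ren1 to Agt FPKM ratio sets the enzyme against its substrate. It was 0.831, 1.13 and 0.984 in PTCKO UIR, 1.59, 1.44 and 1.25 in WT UIR, 1.38, 0.628 and 1.80 in PTCKO sham, and 8.77, 5.50 and 3.80 in WT sham. Every PTCKO UIR library lay below every WT UIR library, and every PTCKO sham library below every WT sham library. PTCKO minus WT was -1.42 on the log2 scale (exact two-sided permutation within surgery p = 0.005, the smallest that 400 arrangements can give, adjusted p = 0.015 over 6 ratio tests). That mean over surgeries joins a wide gap in sham and a narrower one after UIR. The ratio draws on the same Ren1 and Agt values as the sham calls, and the split of renin reads enters it. UIR minus sham, permuted within genotype, was -1.13 (exact p = 0.03, adjusted p = 0.06), and with Ren2 reads added to Ren1 it was -1.30 (adjusted p = 0.04).

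**Figure D4:**
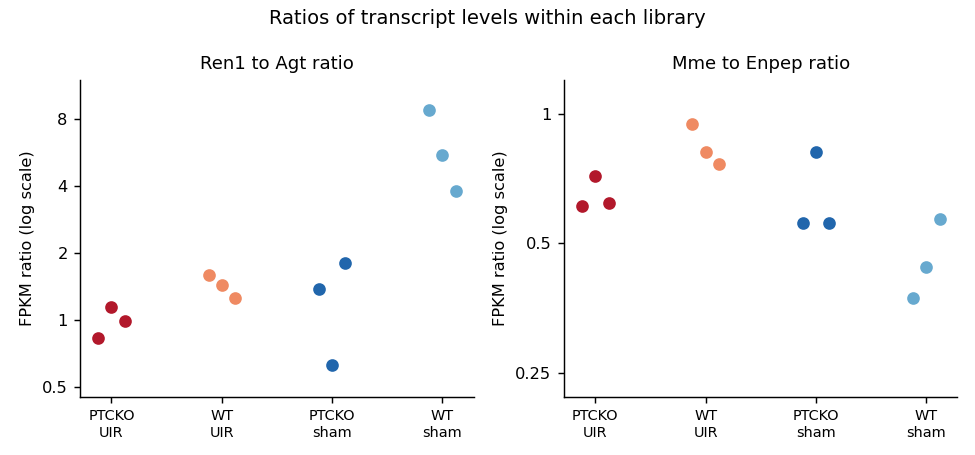
FPKM ratios within each library on log2-spaced axes, 1 point per library, for Ren1 to Agt and Mme to Enpep in the 4 groups. Ren1 to Agt is 3.80 to 8.77 in WT sham and at most 1.80 elsewhere, and Mme to Enpep is 0.763 to 0.945 in WT UIR and 0.373 to 0.569 in WT sham.

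Agtr1a (Entrez 11607, chromosome 13, 30336356 to 30382867, plus strand) encodes the main AT1 receptor of mouse kidney. It had 19.0, 25.6 and 20.6 FPKM in PTCKO UIR, 23.5, 25.7 and 24.2 FPKM in WT UIR, 21.9, 20.8 and 22.9 FPKM in PTCKO sham, and 20.5, 23.4 and 18.1 FPKM in WT sham. In FPKM the 4 groups were close, with means of 20.7 to 24.5. With TMM scaling Agtr1a was lower after UIR, by -0.53 on the log2 scale in PTCKO (SE 0.105, edgeR adjusted p = 0.000437) and -0.48 in WT (SE 0.104, adjusted p = 0.000864), but without scaling the values were -0.01 in PTCKO and 0.23 in WT (adjusted p = 0.0851). Relative to the median gene it was -0.59 in PTCKO with and without scaling, and -0.58 with and -0.59 without scaling in WT. Those pairs are alike by construction. PTCKO over WT was -0.09 after UIR (SE 0.104, adjusted p = 0.605) and -0.04 after sham (SE 0.105, adjusted p = 0.839), and the sham value turned to 0.09 without scaling. Of the 6 tested members, Agtr1a and Enpep were called in neither genotype comparison.

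The other receptors were at the limit of detection. Agtr1b (Entrez 11608, chromosome 3, 20314473 to 20367177, minus strand), the second AT1 receptor, more prominent in adrenal gland, had 1.01 expected counts over the 3 PTCKO UIR libraries, 7.06 in WT UIR, 0 in PTCKO sham and 2.03 in WT sham. Its highest level was 0.09 FPKM, in WT UIR 3. Agtr2 (Entrez 11609, chromosome X, 21484624 to 21488833, plus strand), the AT2 receptor, which is largely fetal in kidney, had 0 counts in PTCKO UIR, 2.00 in WT UIR, 5.00 in PTCKO sham and 4.00 in WT sham. Its highest level was 0.06 FPKM, in WT sham 2. Both were below the count filter, so differences between groups were not detectable at this depth. RSEM could split reads of Agtr1a and Agtr1b, which are paralogs.

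Genes that couple the AT1 receptor to its signals or restrain it were followed as a list. Of 12 such genes, 7 rose and 4 fell after UIR in PTCKO (39.0% of all tested genes rose and 34.8% fell). In WT 8 rose and 4 fell (42.1% and 36.4% of tested genes), with Gna11 changing direction in WT without scaling. The median log2 fold change of the list was 0.52 in PTCKO and 0.97 in WT, beside 0.06 and 0.10 for all genes. Cybb, the NADPH oxidase subunit of phagocytes, rose by 3.65 in PTCKO (SE 0.175, edgeR adjusted p = 1.14e-09) and by 4.40 in WT (SE 0.181, adjusted p = 2.16e-10). Arrb2, a beta-arrestin that desensitises the receptor, rose by 2.64 in PTCKO (SE 0.141, adjusted p = 2.39e-09) and by 2.98 in WT (SE 0.142, adjusted p = 5.35e-10). Both genes are abundant in leukocytes. The summed FPKM of 9 macrophage and dendritic cell markers was 1738 to 2238 in the PTCKO and 2126 to 3052 in the WT libraries after UIR, and 56.4 to 72.7 in the PTCKO and 59.4 to 71.2 in the WT libraries after sham, and their part in these rises was not tested.

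Between PTCKO and WT after UIR, 2 of the 12 were higher and 5 lower (median -0.12), beside 9.30% and 4.50% of tested genes. Nox4, the NADPH oxidase of kidney tubule, had 23.7, 21.1 and 27.3 FPKM in PTCKO UIR and 7.29, 14.1 and 8.66 FPKM in WT UIR. It was higher in PTCKO by 1.34 on the log2 scale (SE 0.209, edgeR adjusted p = 0.00175). Agtrap, which promotes internalisation of the AT1 receptor, had 24.1, 22.9 and 24.3 FPKM in PTCKO UIR and 17.9, 20.5 and 16.9 FPKM in WT UIR, a log2 fold change of 0.44 (SE 0.0845, adjusted p = 0.00477). Neither overlapped between genotypes, and both calls were kept in each of the 12 fits that left out 1 library.

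The 5 lower genes were Rgs5, Rgs2, Cybb, Arrb2 and Gnaq. Rgs5, a pericyte regulator of G-protein signalling, had 22.4, 32.3 and 21.7 FPKM in PTCKO UIR and 40.8, 39.2 and 35.6 FPKM in WT UIR (log2 fold change -0.53, SE 0.115, edgeR adjusted p = 0.00898; 0.0502 without PTCKO UIR 3). Rgs2, which damps Gq signalling, was -0.55 (SE 0.126, adjusted p = 0.0125), and Gnaq, the Gq alpha subunit, was -0.26 (SE 0.0648, adjusted p = 0.0177). Rgs2 lost its call without WT UIR 3, PTCKO UIR 1 or PTCKO UIR 3 (adjusted p up to 0.0602), and Gnaq without WT UIR 1, WT UIR 3, PTCKO UIR 1 or PTCKO UIR 3 (adjusted p up to 0.107). Cybb (-0.60, SE 0.146, adjusted p = 0.0174) lost its call without WT UIR 1, WT UIR 3 or PTCKO UIR 3 (adjusted p up to 0.0916), and Arrb2 (-0.44, SE 0.127, adjusted p = 0.0367) lost it in 8 of those 12 fits (adjusted p up to 0.179). The summed FPKM of 10 smooth muscle, mesangial and pericyte markers was 378 to 472 in PTCKO UIR and 571 to 679 in WT UIR. Its part in the lower Rgs5 and Rgs2 was not tested.

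In sham kidneys Jak2, a kinase downstream of AT1, was higher in PTCKO (log2 fold change 0.38, SE 0.0805, edgeR adjusted p = 0.0177), and Rgs2 was lower (-0.52, SE 0.135, adjusted p = 0.0334). Jak2 had 6.71, 7.94 and 7.75 FPKM in PTCKO sham and 4.86, 5.78 and 5.33 FPKM in WT sham, without overlap. Its call was lost without WT sham 1 or PTCKO sham 2 (adjusted p up to 0.0586). Rgs2 had 8.50, 8.21 and 9.91 FPKM in PTCKO sham and 10.5, 14.0 and 10.4 FPKM in WT sham, also without overlap, and its call was lost in 5 of the 12 fits that left out 1 library (adjusted p up to 0.101) and without scaling (-0.39, adjusted p = 0.0788). The other 10 genes of the list were not called after sham, where 10.7% of tested genes were called in either direction.

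**Figure D5:**
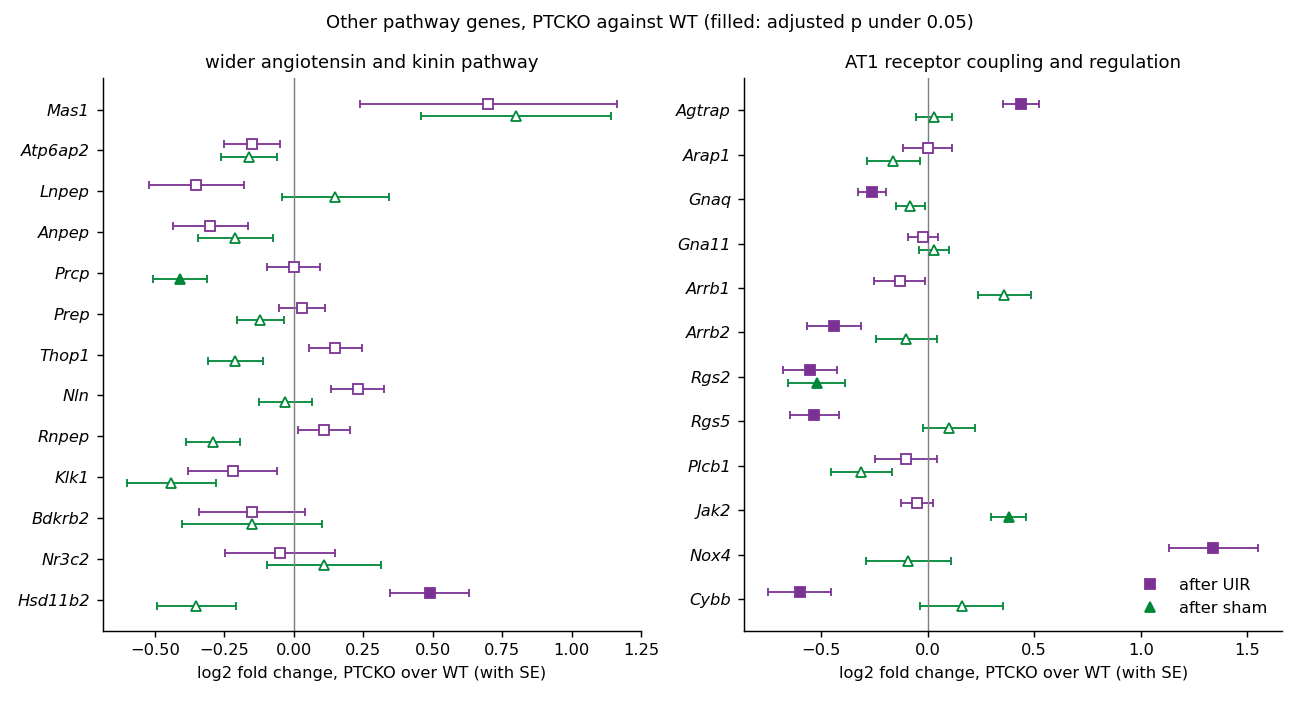
Log2 fold changes of PTCKO over WT with SE (x axes) for tested genes of the wider pathway (left) and of AT1 receptor coupling (right), after UIR (squares) and after sham (triangles), filled where the adjusted p was under 0.05. Nox4 lies at 1.34 after UIR and at -0.09 after sham, and Hsd11b2 at 0.49 after UIR and -0.35 after sham.

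Mme (Entrez 17380, chromosome 3, 63295211 to 63383713, plus strand) encodes neprilysin, which makes angiotensin 1-7 from angiotensin I and degrades several vasoactive peptides. It had 14.9, 20.0 and 14.6 FPKM in PTCKO UIR, 24.1, 20.7 and 17.6 FPKM in WT UIR, 20.9, 26.6 and 19.4 FPKM in PTCKO sham, and 13.0, 15.1 and 12.9 FPKM in WT sham. The 3 PTCKO sham libraries lay above the 3 WT sham libraries, while after UIR the genotypes overlapped. In sham kidneys Mme was higher in PTCKO, with a log2 fold change of 0.56 (SE 0.137, edgeR adjusted p = 0.0263). That call was lost without WT sham 1 (0.53), WT sham 3 (0.54), PTCKO sham 1 (0.60) or PTCKO sham 2 (0.43), with an adjusted p up to 0.0918.

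The UIR effect on Mme differed between genotypes. It fell by 0.93 on the log2 scale in PTCKO (SE 0.137, edgeR adjusted p = 3.40e-05), and its value in WT was -0.11 (SE 0.136, adjusted p = 0.482). The interaction was -0.83 (SE 0.193, adjusted p = 0.0122) and was called in each of the 12 fits that left out 1 library, from -0.95 to -0.70. On TMM-scaled CPM, Mme averaged 77.6 ± 12.0 in PTCKO UIR against 148 ± 22.8 in PTCKO sham, and 93.2 ± 12.9 in WT UIR against 100.4 ± 6.90 in WT sham (SD, n = 3 each). The WT value depended on scaling and was called higher after UIR without it (0.61, adjusted p = 0.00216). Relative to the median gene the WT value was -0.21 with and without scaling, which is alike by construction. After UIR, PTCKO over WT was -0.26 (SE 0.136, adjusted p = 0.222).

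Enpep (Entrez 13809, chromosome 3, 129269177 to 129332749, minus strand) encodes aminopeptidase A, which converts angiotensin II to angiotensin III. It had 24.4, 27.9 and 23.5 FPKM in PTCKO UIR, 25.4, 25.3 and 23.0 FPKM in WT UIR, 37.5, 32.6 and 34.8 FPKM in PTCKO sham, and 34.8, 34.3 and 22.6 FPKM in WT sham. WT sham 3 lay with the UIR libraries and the other sham libraries lay above them. Enpep fell after UIR by 0.99 on the log2 scale in PTCKO (SE 0.128, edgeR adjusted p = 1.09e-05) and by 1.02 in WT (SE 0.128, adjusted p = 6.54e-06). In WT the call was lost without scaling (-0.31, adjusted p = 0.0501). Relative to the median gene the WT value was -1.12 with and -1.13 without scaling, values that are alike by construction. PTCKO over WT was 0.10 after UIR (SE 0.127, adjusted p = 0.628) and 0.07 after sham (SE 0.127, adjusted p = 0.737). The interaction was 0.03 (SE 0.180, adjusted p = 0.918), and its sign turned without scaling (-0.16).

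The Mme to Enpep FPKM ratio was 0.611, 0.717 and 0.621 in PTCKO UIR, 0.945, 0.817 and 0.763 in WT UIR, 0.557, 0.816 and 0.557 in PTCKO sham, and 0.373, 0.440 and 0.569 in WT sham. The WT UIR libraries were above all WT sham libraries, and the PTCKO groups overlapped. Every PTCKO UIR library lay below every WT UIR library. In sham the genotypes overlapped, with the highest ratio in PTCKO and the lowest in WT. UIR minus sham was 0.46 on the log2 scale (exact two-sided permutation p = 0.05, adjusted p = 0.075), and PTCKO minus WT was 0.05 (exact p = 0.8, adjusted p = 0.8). The first is a mean over genotypes and the second a mean over surgeries. Opposite differences can cancel in such a mean, so 0.05 does not show that genotype left the ratio unchanged.

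Most other hydrolases of the brush border fell after UIR. Of 12 listed, 11 were lower after UIR in each genotype (34.8% of tested genes in PTCKO and 36.4% in WT), with a median log2 fold change of -1.72 in PTCKO and -2.76 in WT. Between PTCKO and WT after UIR 6 of the 12 were higher and 0 lower (median 0.73), beside 9.30% and 4.50% of tested genes. Among the 6 was Treh, the trehalase of the brush border (1.45, SE 0.217, edgeR adjusted p = 0.00142). Treh had 10.2, 13.6 and 17.9 FPKM in PTCKO UIR and 4.80, 7.30 and 4.02 FPKM in WT UIR. In sham kidneys 1 of the 12, Mep1b, a meprin subunit, was called, and it was higher in PTCKO (5.23% of tested genes were). Podocytes also make Mme and Enpep, and the summed FPKM of 8 podocyte markers was 183 to 225 in the PTCKO and 248.6 to 275 in the WT libraries after UIR, and 88.2 to 103 in the PTCKO and 84.3 to 109 in the WT libraries after sham.

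The wider angiotensin and kinin pathway held 19 genes, of which 17 were in the table and 14 could be tested. After UIR 2 of the 14 rose and 6 fell in PTCKO (39.0% and 34.8% of tested genes), and 2 rose and 9 fell in WT (42.1% and 36.4%). But without scaling 7 of the 14 were called higher and 4 lower in PTCKO, and 8 higher and 5 lower in WT. The median log2 fold change was -0.27 in PTCKO and -0.29 in WT, and it turned to 0.24 and 0.42 without scaling, as did Atp6ap2 and Nln in both genotypes and Prep and Thop1 in WT. Klk1, the tissue kallikrein that releases kinins, fell by 2.08 in PTCKO (SE 0.166, edgeR adjusted p = 9.37e-08) and by 2.29 in WT (SE 0.168, adjusted p = 2.65e-08). Bdkrb2, the kinin B2 receptor, rose by 1.58 in PTCKO (SE 0.223, adjusted p = 2.36e-05) and by 1.59 in WT (SE 0.220, adjusted p = 1.61e-05).

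Mas1, the receptor for angiotensin 1-7, was low throughout, with 0.21, 0.14 and 0.25 FPKM in PTCKO UIR, 0.11, 0.03 and 0.22 FPKM in WT UIR, 0.83, 0.75 and 0.76 FPKM in PTCKO sham, and 0.53, 0.48 and 0.35 FPKM in WT sham. It fell after UIR by 2.39 in PTCKO (SE 0.369, edgeR adjusted p = 5.48e-05) and by 2.29 in WT (SE 0.421, adjusted p = 0.000223). Atp6ap2, the prorenin receptor and a subunit of the proton pump, had 41.4, 51.0 and 42.1 FPKM in PTCKO UIR, 53.2, 51.6 and 51.6 FPKM in WT UIR, 37.0, 38.2 and 37.7 FPKM in PTCKO sham, and 36.2, 35.1 and 43.8 FPKM in WT sham. Its log2 fold change, UIR over sham, was -0.26 in PTCKO (adjusted p = 0.0302) and -0.27 in WT (adjusted p = 0.0231), and was called in the other direction without scaling, at 0.25 and 0.44.

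After UIR 2 of the 14 were higher in PTCKO than WT (9.30% of tested genes), among them Hsd11b2, the enzyme that shields the mineralocorticoid receptor from glucocorticoid (0.49, SE 0.142, edgeR adjusted p = 0.0384). Hsd11b2 had 81.0, 105 and 84.9 FPKM in PTCKO UIR and 68.3, 83.3 and 51.2 FPKM in WT UIR, which overlap. Its call was lost in 7 of the 12 fits that left out 1 library (adjusted p up to 0.103) and without scaling (0.42, adjusted p = 0.0820). In sham kidneys 1 of the 14 was called (10.7% of tested genes), Prcp, a carboxypeptidase that can cleave angiotensin II, lower in PTCKO (-0.41, SE 0.0973, adjusted p = 0.0247). Prcp had 15.0, 12.7 and 14.6 FPKM in PTCKO sham and 18.1, 18.9 and 14.6 FPKM in WT sham. Its call was lost without WT sham 1, WT sham 2, PTCKO sham 2 or PTCKO sham 3 (adjusted p up to 0.0821) and without scaling (-0.28, adjusted p = 0.0854).

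The libraries also differed in cell type markers that are not part of the system. Of all tested genes, 9.30% were called higher and 4.50% lower in PTCKO than WT after UIR. After UIR PTCKO was higher than WT in the proximal tubule genes Cubn (log2 fold change 1.65, SE 0.216, edgeR adjusted p = 0.000776) and Lrp2 (1.40, SE 0.206, adjusted p = 0.00133). It was lower in 9 of 10 endothelial markers, such as Tie1 (-0.64) and Emcn (-0.43), in 5 of 10 smooth muscle, mesangial and pericyte markers, such as Acta2 (-0.66) and Tagln (-0.67), and in 2 of 8 podocyte markers, such as Wt1 (-0.58; lost in 3 of the 12 fits that left out 1 library, adjusted p up to 0.0983). It was lower in 2 of 8 fibroblast markers, Lum (-1.72; lost without WT UIR 1, adjusted p = 0.0518) and Dpt (-0.83; lost in 4 of the 12 fits that left out 1 library, adjusted p up to 0.125), and in 1 of 9 macrophage and dendritic cell markers, Cd68 (-0.87), with Adgre1 at -0.75 (adjusted p = 0.0512). It was higher in 3 of 5 B lymphocyte markers tested, such as Ms4a1 (1.58, at most 0.84 FPKM; lost in 3 of those 12 fits, adjusted p up to 0.0614), and in 2 of 7 liver-type secreted genes, Fgg (2.40) and Fga (2.29). By edgeR 0 of 8 neutrophil markers were called (3 at an unadjusted p under 0.05), with S100a9 at 1.00 and Ly6g at 2.44, and 0 of 2 mast cell markers (1 at an unadjusted p under 0.05), with Kit at -0.31 and Ms4a2 at 0.11. Ly6g was near the floor, with 0 or 1 expected counts per library in WT UIR and 2 or 3 in PTCKO UIR. Of the adrenal cortex markers 1 could be tested, Star (0.01, adjusted p = 0.994), and Cyp11b1 was at 0 in all libraries of PTCKO sham, WT UIR and WT sham. After sham 1 of the 12 proximal tubule markers was called, lower in PTCKO (5.50% of tested genes were lower).

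Genes whose levels ran most like each member over the 12 libraries were found among 9205 genes with Pearson's r of log2(TMM-scaled CPM + 1), as a description. The libraries of a group share surgery and genotype, which enters each r. Ren1 ran most like Actr6 (0.961), Bcl2l1 (0.960) and Ppard (0.956). Agt had the lowest best match of the 6, Large2 (0.869), followed by Erbb2 (0.860) and Id4 (0.858). Ace ran most like Mgam (0.998), Ngef (0.998) and Acad12 (0.997), Agtr1a like Oxgr1 (0.972), Iqgap2 and Snx1 (0.968 each), Mme like Tns2 (0.954), Slc12a1 and Yy1 (0.949 each), and Enpep like Rad23b (0.992), Slc25a30 (0.991) and Prkar2a (0.989).

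With the group means taken out, so that only differences among libraries of a group remain, the closest genes changed. Agt then ran most like Cryab (0.981), Cldn3 (0.971) and Ccdc114 (0.964), and Ren1 most like Zfp943 (0.932), Plekha8 (0.919) and Zrsr2 (0.901). Ace ran most like Pkp4 (0.973), Pdss1 (0.942) and Ngef (0.934), the 1 gene of these that was also among the 3 closest over all libraries. Agtr1a ran most like Blzf1 (0.953), Mme most like Tex10 (0.968) and Enpep most like Aqr (0.964). These are the closest of 9205 genes, so a high r comes in part from the search itself. For Agt, PTCKO sham 2 stood apart, at 104 CPM against 51.7 and 50.7 in its group.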

How the data were processed

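Bulk RNA-seq of kidney was analysed in 12 libraries, placed in 4 groups by their titles. Per the submitters' processing notes, Bowtie2, RSEM, DESeq2 and the GRCm38.p6 build were used, with no versions given. The authors deposited 1 table with expected counts, FPKM and TPM per gene and library, and 0 columns were left without a library. The file headers name read counts, but 30.8% to 35.4% of the deposited counts in a library were not whole (tolerance 1e-06), so they were taken as RSEM expected counts. No source states whether counting used strand. The deposited FPKM and TPM values are the authors' own normalised levels, as named in the file headers.

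Counts were rounded and tested with edgeR 4.0.16 in R 4.3.3 (filterByExpr, TMM, 1 coefficient per group, 8 residual degrees of freedom, quasi-likelihood test, Benjamini-Hochberg over 15322 genes). Alternatives were DESeq2 1.42.0, median-ratio or no scaling, limma 3.58.1 on log2(FPKM + 1), log2(FPKM + 0.1) or log2(TPM + 1), no filter on low values, only the groups compared, a replicate block and leaving out each library. Ratios were tested by exact permutation in SciPy 1.17.1, adjusted over 6 tests. Scripts were tested on simulated data.

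The members, the 16 other gene lists and the rule for named genes were chosen with earlier results of these data known. The rule names all 8 members, pathway and AT1-coupling genes called between genotypes or in the interaction, Mas1, Atp6ap2, Akr1b7, Nos1, Ptgs2, up to 2 genes per other list with the smallest p in PTCKO against WT after UIR, and the 3 genes most like each member by Pearson's r. Ren2, Slc12a1, Klk1, Bdkrb2, Gja5, Mep1b, Alb, Kap, Casr and Cyp11b1 were named after their values were seen. Promoters are from RefSeq (GRCm38.p6). Some genes that the rule names, and a ratio that uses one of them, are counted in list totals but not reported here.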

Additional observations from a re-analysis of the deposited data

Results flagged for a closer look

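Of the members, 2 had a UIR effect that differed between genotypes by the interaction term of edgeR, given as the log2 fold change in PTCKO minus that in WT. Ren1 was 1.18 (adjusted p = 0.00531), having fallen less in PTCKO, and was 0.83 with Ren2 reads added. Within PTCKO the UIR effect on Ren1 cannot be told apart from the split of reads between Ren1 and Ren2. Mme was -0.83 (adjusted p = 0.0122), having fallen in PTCKO and not passed the test in WT.

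In the pathway lists the interaction was called for the following genes. Nox4 was 1.43 (adjusted p = 0.00698), Hsd11b2 0.83 (adjusted p = 0.0137), Prcp 0.41 (adjusted p = 0.0475) and Agtrap 0.40 (adjusted p = 0.0306), so their values after UIR relative to sham were higher in PTCKO than in WT. Cybb was -0.75 (adjusted p = 0.0430), Rgs5 -0.63 (adjusted p = 0.0204) and Jak2 -0.43 (adjusted p = 0.0173). The calls of Nox4, Hsd11b2 and Jak2 were kept in each of the 12 fits that left out 1 library. Those of Prcp and Cybb were each lost in 9 of them, that of Agtrap in 8, and that of Rgs5 without WT sham 3 (adjusted p = 0.0501). Prcp and Agtrap also lost the call without scaling, at 0.22 and 0.20. Hsd11b2 lost it with limma on unfiltered log2(FPKM + 1) and on log2(TPM + 1).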

How the results depend on the processing

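Ren1 lower in PTCKO than WT after sham, Ren1 lower after UIR in WT, the Ren1 and Mme interactions and Ace lower after UIR kept direction and call in every alternative run. None of these runs separates surgery from the split of renin reads within PTCKO. Members called lower after UIR in PTCKO numbered 3 in place of 5 without scaling, with limma on log2(FPKM + 1), log2(FPKM + 0.1) or log2(FPKM + 1) unfiltered, and with limma on log2(TPM + 1). Members called between PTCKO and WT after UIR numbered 0 in place of 1 with limma on unfiltered FPKM and when only the groups compared were fitted. Genes called after sham numbered 2597 with TPM in place of 1645. The Ren1 to Agt ratio, UIR minus sham, was called at -1.30 with Ren2 reads added (adjusted p = 0.04).

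Directions that turned without scaling, with limma on log2(FPKM + 1), on log2(FPKM + 0.1), unfiltered and on TPM, in that order, were Agtr1a in WT UIR over sham (0.23, 0.24, 0.25, 0.24 and 0.41), Mme in WT UIR over sham (0.61, 0.57, 0.60, 0.57 and 0.74), Agtr1a in PTCKO over WT sham (0.088, 0.083, 0.087, 0.083 and 0.18) and the Enpep interaction (-0.16, -0.18, -0.18, -0.18 and -0.33). Agt in PTCKO UIR over sham turned with the 4 limma fits (0.075, 0.079, 0.075 and 0.092), and Enpep in PTCKO over WT after UIR with TPM (-0.019). These settings leave out TMM scaling.

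Leaving out 1 library gave 0 to 1 members called between PTCKO and WT after UIR and 1 to 3 after sham, and 904 to 3321, 430 to 2183 and, for the interaction, 1743 to 4565 genes called. The Mme to Enpep ratio ranged from -0.04 to 0.13 for PTCKO minus WT and 0.39 to 0.55 for UIR minus sham, and Ren1 to Agt from -1.35 to -0.97 for UIR minus sham. The last 2 were called without PTCKO sham 2. Signs turned within ranges near 0 for Agt in WT UIR over sham (-0.11 to 0.37), Agtr1a in PTCKO over WT after UIR (-0.18 to 0.004) and sham (-0.11 to 0.049) and in the interaction (-0.15 to 0.030), and Enpep after sham (-0.087 to 0.17) and in the interaction (-0.069 to 0.19).

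The labels do not say whether replicate numbers pair the samples. Deviations of same-numbered libraries correlated at -0.0893 to 0.179, which cannot exclude a small shared effect. With a replicate block 5, 4, 1, 3 and 2 members and 11302, 12044, 1983, 1667 and 3274 genes were called for UIR over sham in PTCKO and in WT, PTCKO over WT after UIR and after sham, and the interaction, and no member's call changed. Among the other genes named, the block ended the interaction calls of Prcp, Cybb and Lum, the call of Akr1b7 between PTCKO and WT sham and that of Dpt between PTCKO and WT after UIR. Those of Akr1b7 and Dpt were also lost when only the groups compared were fitted. So were the calls of Cybb, Arrb2 and Hsd11b2 between PTCKO and WT after UIR. The interaction could not be fitted to the groups compared only. Agtr1b and Agtr2 were too shallow to compare.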
